A study of Mus musculus with 16 samples.

Results

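The nuclear genes of the mitochondrial respiratory chain were followed in mouse dorsal skin, in 16 libraries from 4 groups of 4 mice. Members were chosen by symbol alone, as every row of the count files whose symbol names a subunit of complex I (Ndufa, Ndufb, Ndufc, Ndufs or Ndufv with a number), complex III (Uqcr), complex IV (Cox4 to Cox8) or the ATP synthase (Atp5). This gave 80 genes among 23282 rows, of which 37 belonged to complex I, 8 to complex III, 18 to complex IV and 17 to complex V. The rule uses no measured value. A few of these symbols stand for proteins with another or a wider role. Ndufa4 is now placed in complex IV, Cox7a2l is a factor that joins complexes III and IV, and Atp5s and Atp5sl, renamed Dmac2l and Dmac2, are not core subunits of the ATP synthase. None of the subunit genes of the mitochondrial DNA is listed in the files, so the chain is described here only through its subunits encoded in the nucleus.

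All animals were wild-type male C57BL/6N mice, bought when 3 weeks old. The Cont group ate normal chow. The LowAhR group ate a diet low in ligands of the aryl hydrocarbon receptor (AhR), a transcription factor that senses plant and environmental compounds, for 12 weeks, on paper bedding without such ligands. The LowAhR+AD group had the same diet, and its dorsal skin was painted repeatedly with 1% 2,4-dinitrochlorobenzene (DNCB), a contact sensitiser used to induce skin inflammation that resembles atopic dermatitis (AD). The LowAhR+AD+BJ group also received Bojungikgi-tang (BJIKT), a herbal preparation, by oral gavage at 1 g/kg per day. Whether the mice without DNCB or BJIKT received a vehicle is not given in the sources used here. No group received DNCB on normal chow, so LowAhR+AD against Cont joins the diet and DNCB, and every BJIKT mouse also had both.

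The respiratory chain carries electrons from NADH and succinate through complexes I to IV to oxygen, pumps protons across the inner mitochondrial membrane, and lets the ATP synthase (complex V) use the proton gradient to make ATP. Most of its subunits are encoded in the nucleus and made in nearly every cell. A few subunits of cytochrome c oxidase (complex IV) exist as paired forms, one widely expressed and one made mainly in heart and skeletal muscle. Whole dorsal skin of the mouse holds epidermis, hair follicles, dermal fibroblasts, fat and a thin sheet of striated muscle, the panniculus carnosus.

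Depth ranged from 7080508 to 13467477 counts per library. The DNCB libraries, at 10614393 counts or more, were all deeper than the others, at 8773876 or fewer, so depth and DNCB cannot be told apart. Levels are given as CPM, the counts of a gene relative to the TMM-scaled library size of edgeR. QuantSeq reads come from the 3′ end of a transcript, so CPM was not divided by gene length. Genes with an adjusted p under 0.05 (edgeR quasi-likelihood test, Benjamini-Hochberg, 14854 rows, one model for all 16 libraries) are said to be called. The comparisons share groups, so their results are not independent of each other. The labelled tissue held its markers: the 8 basal and suprabasal keratinocyte markers summed to between 5245 and 13345 CPM in all libraries.

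Between 1.57% and 2.32% of all counts in a library fell on the 80 genes. Highest over all groups were Atp5g3, which encodes the membrane ring of the ATP synthase, and Cox6c, a small subunit of cytochrome c oxidase. Atp5g3 averaged 756 ± 88.1 CPM in Cont (SD, n = 4 for all group means here), 1073 ± 197 in LowAhR, 1107 ± 445 in LowAhR+AD and 1314 ± 93.9 in LowAhR+AD+BJ. Cox6c averaged 995 ± 157, 1285 ± 392, 759 ± 74.2 and 1005 ± 254 CPM in the same order. At the other end, the testis forms Cox8c and Cox7b2 were at or near 0 counts in every library, where 3 counts correspond to between 0.223 and 0.424 CPM, and were not tested. Cox4i2, a form linked to low oxygen, and Cox6b2, another testis form, stayed at or below 8.45 and 13.3 CPM. Ndufa2, an accessory subunit of complex I, averaged 337 ± 23.6, 490.2 ± 69.2, 447 ± 65.9 and 434 ± 18.4 CPM, and Atp5j2, the f subunit of the ATP synthase, 530.2 ± 56.2, 669 ± 90.9, 519.7 ± 155 and 697 ± 123 CPM. Cox7a2l averaged 342 ± 15.5, 390.4 ± 94.5, 260.3 ± 65.6 and 294 ± 50.6 CPM, and with all libraries edgeR called none of these 3 in any comparison. Cox7a2l was called lower in LowAhR+AD against LowAhR without LowAhR+AD replicate 1. The other 78 genes passed the filter on low counts.

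Summed by complex, the mean was higher in LowAhR than in Cont for all 4 complexes, and the libraries did not overlap for complexes I, III and IV. Complex I summed to 6032, 5427, 5291 and 6496 CPM in the Cont libraries (replicates 1 to 4, here and below) and to 7813, 7712, 8207 and 6907 CPM in LowAhR. All 4 LowAhR libraries lay above all 4 Cont libraries. Complex III summed to 1851 ± 129.6 CPM in Cont and 2592 ± 195 in LowAhR, and complex IV to 4238 ± 429.7 and 5907 ± 506, also without overlap. The ATP synthase summed to 4644 ± 562 and 5601 ± 448 CPM, with 1 Cont library, at 5288 CPM, inside the LowAhR range of 5262 to 6236. In LowAhR+AD the sums of complexes I, III and IV were 6045 ± 686, 2329.8 ± 323 and 4429 ± 884 CPM. They were 7521 ± 699.9, 2863 ± 278 and 5777 ± 578 CPM in LowAhR+AD+BJ, and in each of these 3 complexes the libraries of these 2 groups overlapped.

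**Figure D1:**
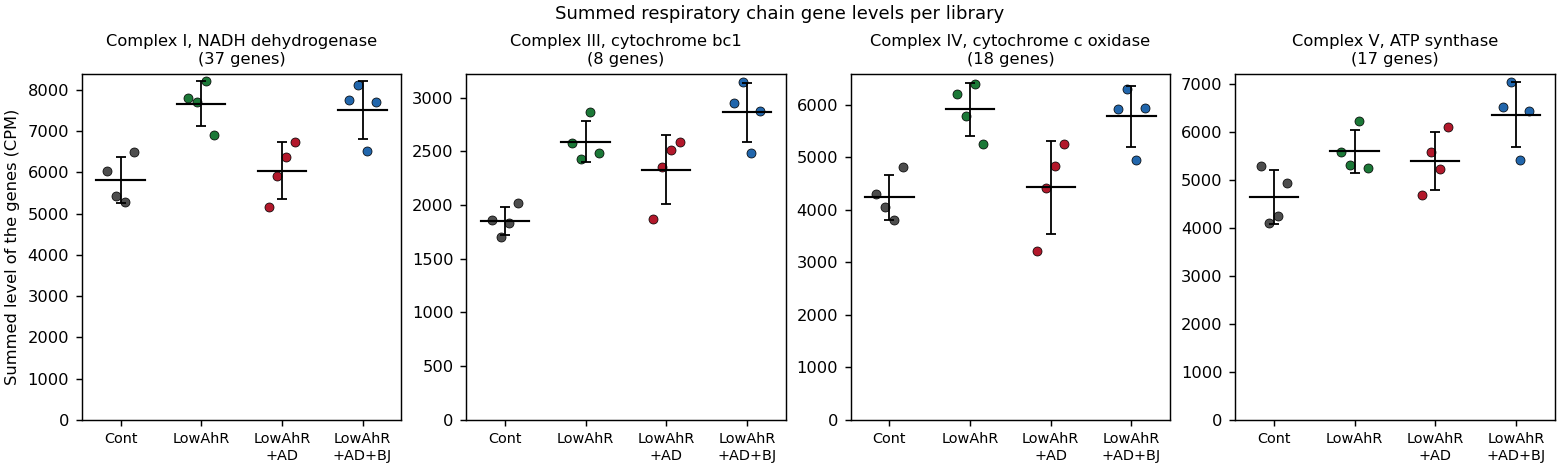
Summed CPM of the genes of each complex (y axis, from 0) in the 4 groups (x axis). Each point is 1 library, the bar is the group mean and the whisker is 1 SD. For complexes I, III and IV all LowAhR points lie above all Cont points, and the lowest LowAhR+AD point, replicate 1, is at 5152, 1868 and 3205 CPM.

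The diet without DNCB was read from LowAhR against Cont, where diet and bedding changed together and cannot be told apart. No member was called, and neither was any other gene (0.0% of tested rows). At an unadjusted p under 0.05, 24 of the 78 tested members were higher and 0 were lower, or 30.8%, beside 7.84% of all tested rows higher. Higher mean levels were found for 69 members, with a median log2 fold change of 0.39, beside 0.026 over all rows. In 27 members (34.6%) all 4 LowAhR libraries lay above all 4 Cont libraries, beside 5.68% of all rows, and the reverse held for 0, beside 5.63%. The medians were 0.38 in complex I, 0.38 in complex III, 0.48 in complex IV and 0.37 in complex V.

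The lowest adjusted p in this comparison belonged to Uqcrh, the hinge protein of complex III. Uqcrh was at 394, 457, 439 and 497 CPM in Cont and at 691, 743, 881 and 740.4 CPM in LowAhR. Each LowAhR library was above every Cont library, and the log2 difference of 0.77 (SE 0.19) had an edgeR adjusted p of 0.0811. Ndufa8, a complex I subunit on the intermembrane side, was at 27.3, 24.8, 21.6 and 27.1 CPM in Cont and at 41.8, 39, 52.8 and 86.3 CPM in LowAhR. Its log2 difference was 1.13 (SE 0.28, edgeR adjusted p = 0.0846). The groups again did not overlap, with LowAhR replicate 4 far above the others.

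In complex IV the widely expressed Cox4i1, a regulatory subunit, was at 297, 298, 284 and 291 CPM in Cont and at 485, 438, 604 and 530.1 CPM in LowAhR. The Cont libraries lay close together, below all LowAhR libraries, and the log2 difference was 0.81 (SE 0.21, edgeR adjusted p = 0.0914). Atp5h, the d subunit of the stalk of the ATP synthase, averaged 223 ± 25 and 342 ± 43.2 CPM, a log2 difference of 0.62 (SE 0.19, edgeR adjusted p = 0.136). White adipocyte markers moved in the same comparison: the 10 markers summed to between 3045 and 5960.2 CPM in Cont and to between 7796 and 12349.6 CPM in LowAhR, without overlap. The 16 hair follicle markers had a median log2 fold change of 4.33, with 15 higher at an unadjusted p under 0.05 and 0 called, and their sums, 26.2 to 997 CPM in Cont and 102 to 10861 in LowAhR, overlapped. The part of either list in the difference was not tested. The skeletal muscle markers, at 13828 to 24694 CPM in Cont and 17719 to 37446 in LowAhR, overlapped. DESeq2 called 10 members in this comparison, beside 3.31% of all rows. A model of only the 8 Cont and LowAhR libraries called 4, Cox4i1, Ndufa1, Ndufa8 and Uqcrh, beside 1.84% of rows.

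DNCB was read from LowAhR+AD against LowAhR, 2 groups on the same diet. Called were 7 of the 78 members (8.97%), all lower, beside 12.6% of all rows called, 6.21% lower and 6.42% higher. They were the 3 muscle forms of cytochrome c oxidase, Cox8b, Cox7a1 and Cox6a2, the Ndufa4 relative Ndufa4l2, and the complex I subunits Ndufa6, Ndufa1 and Ndufa5. The median log2 fold change of the members was -0.14, beside 0.038 over all rows. In 13 members (16.7%) all LowAhR+AD libraries lay below all LowAhR libraries, beside 9.85% of rows, and in 1, Cox6a1, they lay above, beside 8.92% of rows.

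**Figure D2:**
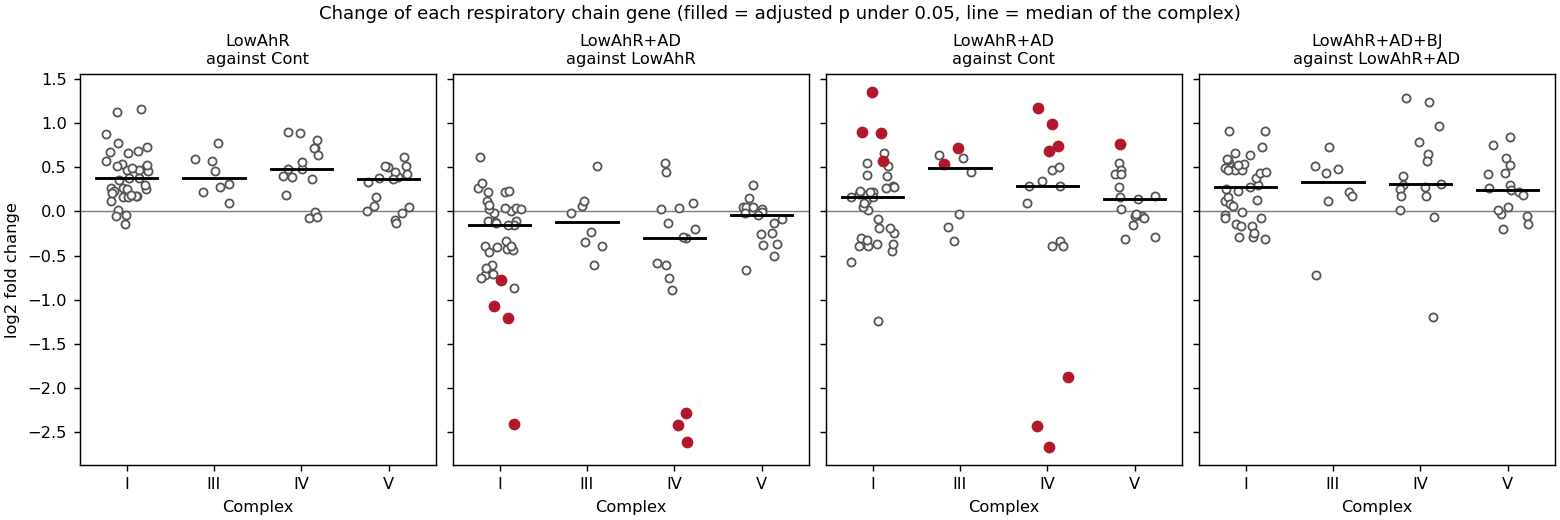
Log2 fold change (y axis) of each of the 78 tested genes by complex (x axis) in 4 comparisons. Filled points were called by edgeR at an adjusted p under 0.05, open points were not, and the line is the median of the complex. The 3 called genes of complex IV lie between -2.61 and -2.29 in LowAhR+AD against LowAhR, far from the other members of the complex, and most members lie above 0 in LowAhR against Cont and in LowAhR+AD+BJ against LowAhR+AD.

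The paired forms of cytochrome c oxidase moved apart. Cox8b, the muscle form of subunit VIII, was at 161, 151, 224 and 109.9 CPM in LowAhR and at 27, 22.7, 8.47 and 47.1 CPM in LowAhR+AD. Every DNCB library was below every library without DNCB, and replicate 3 was the lowest of them. Its log2 difference was -2.61 (SE 0.39, edgeR adjusted p = 6.96e-04). Cox8a, the widely expressed form, was at 417, 324, 446 and 382 CPM in LowAhR and at 212, 400.0, 511 and 477 CPM in LowAhR+AD. These groups overlapped, with a log2 difference of 0.03 (SE 0.24, edgeR adjusted p = 0.957).

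Cox7a1, the muscle form of subunit VIIa, fell from 181, 159, 145 and 85.6 CPM to 17.2, 23.1, 6.14 and 59.5 CPM (log2 difference -2.43, SE 0.47, edgeR adjusted p = 0.00346). Its partner Cox7a2 was at 418, 275, 478 and 528 CPM and at 242, 474, 627 and 479.5 CPM, with a log2 difference of 0.10 (SE 0.26). The groups of Cox7a1 did not overlap, and those of Cox7a2 did. Cox6a2, the muscle form of subunit VIa, fell from 195, 217, 347 and 479 CPM to 70.4, 59.2, 10.1 and 114 CPM (log2 difference -2.29, SE 0.49, edgeR adjusted p = 0.00615). Cox6a1, its partner, was at 308, 257, 397 and 382 CPM and at 427, 416, 487 and 507 CPM, higher in every DNCB library, with a log2 difference of 0.45 (SE 0.19) that did not pass (edgeR adjusted p = 0.131). The 3 muscle forms stayed called when any single library was left out. Without library 4 of LowAhR+AD their log2 differences were -3.05, -3.20 and -2.73 for Cox8b, Cox7a1 and Cox6a2. In a model of only the 8 libraries compared, Cox8b, Cox7a1 and Ndufa4l2 stayed called, while Cox6a2, Ndufa6, Ndufa1 and Ndufa5 did not. That model called 5.49% of all rows.

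The promoters of 5 of the 6 paired forms are shown because the 3 muscle forms moved together and apart from their partners. The sequences are from RefSeq on GRCm38.p6, the assembly also called mm10, from 250 bases before to 50 after the start of the gene, 5′ to 3′ on the strand of the gene. Capitals mark matches on either strand to the 5 motifs searched. They were the site of NRF1, a regulator of respiratory genes (GCGCA, then any base, then GCGC), CCGGAAGT for the ETS family, AAGGTCA for estrogen-related receptors, CAGCTG for the E-box of myogenic factors, and TATAAA for the box of that name, with overlapping matches of different motifs allowed.
Cox8b (chr7:140900397-140900696, minus strand): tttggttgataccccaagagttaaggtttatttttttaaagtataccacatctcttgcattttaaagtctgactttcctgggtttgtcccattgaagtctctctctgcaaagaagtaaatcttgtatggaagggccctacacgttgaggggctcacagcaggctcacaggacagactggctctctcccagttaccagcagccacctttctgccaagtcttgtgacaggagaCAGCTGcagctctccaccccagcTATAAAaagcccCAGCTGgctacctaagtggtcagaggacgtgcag
Cox8a (chr19:7217567-7217866, minus strand): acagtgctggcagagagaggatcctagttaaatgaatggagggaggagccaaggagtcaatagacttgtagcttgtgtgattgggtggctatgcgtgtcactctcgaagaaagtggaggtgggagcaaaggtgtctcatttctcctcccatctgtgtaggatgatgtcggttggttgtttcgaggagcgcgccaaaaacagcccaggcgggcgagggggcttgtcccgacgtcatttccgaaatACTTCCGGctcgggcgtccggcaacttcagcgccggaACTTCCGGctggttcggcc
Cox7a1 (chr7:30183921-30184220, plus strand): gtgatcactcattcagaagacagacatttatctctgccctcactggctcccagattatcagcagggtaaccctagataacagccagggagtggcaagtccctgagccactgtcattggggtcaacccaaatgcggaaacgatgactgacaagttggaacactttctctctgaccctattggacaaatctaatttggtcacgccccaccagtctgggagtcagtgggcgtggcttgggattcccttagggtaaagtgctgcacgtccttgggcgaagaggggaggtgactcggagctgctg
Cox7a2 (chr9:79759804-79760103, minus strand): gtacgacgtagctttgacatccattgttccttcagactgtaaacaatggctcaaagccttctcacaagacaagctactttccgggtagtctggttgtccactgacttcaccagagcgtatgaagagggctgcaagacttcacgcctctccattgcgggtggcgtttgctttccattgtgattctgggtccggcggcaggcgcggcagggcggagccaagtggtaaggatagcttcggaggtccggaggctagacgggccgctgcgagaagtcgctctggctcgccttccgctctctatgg
Cox6a1 (chr5:115348909-115349208, minus strand): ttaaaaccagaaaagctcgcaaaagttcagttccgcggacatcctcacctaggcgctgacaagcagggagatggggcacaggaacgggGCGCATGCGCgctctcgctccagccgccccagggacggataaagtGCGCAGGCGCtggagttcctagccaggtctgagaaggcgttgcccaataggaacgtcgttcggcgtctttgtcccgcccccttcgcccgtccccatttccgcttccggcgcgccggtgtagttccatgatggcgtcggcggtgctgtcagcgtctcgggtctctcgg
Cox8b held 2 E-boxes and a TATA box and 2 CpG dinucleotides. Cox8a held 2 ETS matches and 19 CpG, Cox6a1 2 NRF1 matches and 32 CpG, and Cox7a2 20 CpG with no match. Cox7a1 held 7 CpG and no match. Among the 66 members with a promoter in the table, 15 (22.7%) held the NRF1 letters, beside 5.19% of 27025 genes. The E-box was in 6 (9.09%), beside 18.3% of genes, the TATA box in 7 (10.6%), beside 15.7%, the ETS letters in 5 (7.58%), beside 4.31%, and the estrogen-related receptor letters in 7 (10.6%), beside 5.38%. Such a match is a description of letters, not of binding. The promoters of members also held more G and C, with a median of 57.2% beside 52.7% over all promoters. The part of this base composition in the shares of matches was not tested.

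**Figure D3:**
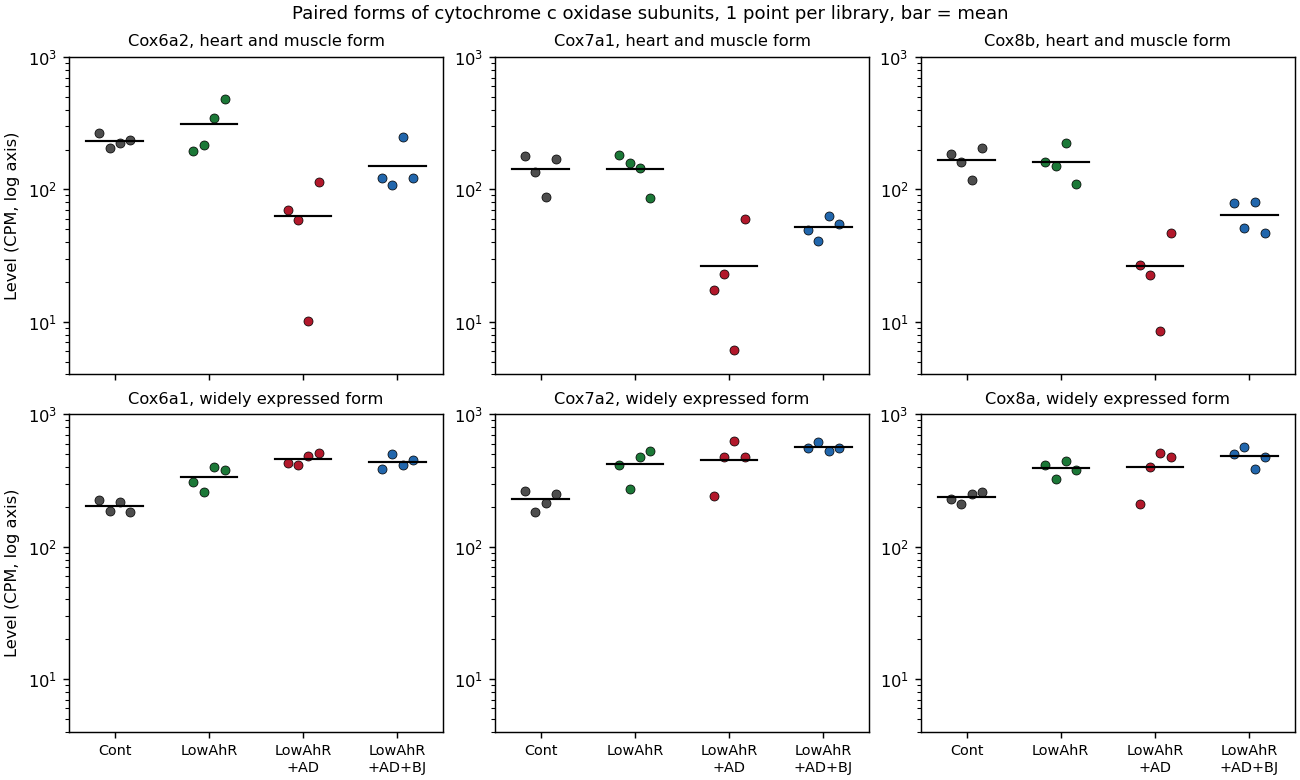
Level in CPM (y axis, log scale) of the muscle form (upper row) and widely expressed form (lower row) of 3 cytochrome c oxidase subunits in the 4 groups (x axis). Each point is 1 library and the bar is the group mean. The muscle forms drop to means of 63.3, 26.5 and 26.3 CPM in LowAhR+AD and stand at 149.9, 52 and 64.1 CPM in LowAhR+AD+BJ, while the widely expressed forms have means of 400.0 to 459 CPM in LowAhR+AD.

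As a share of its pair, Cox6a2 made up 50.9% to 56.3% of Cox6a1 and Cox6a2 together in Cont and 38.8% to 55.6% in LowAhR. The share was 2.03% to 18.3% in LowAhR+AD and 17.8% to 37.3% in LowAhR+AD+BJ. For Cox7a1 the shares averaged 38.0% ± 6.24, 26.0% ± 9.71, 5.83% ± 4.20 and 8.49% ± 1.89 in the same order. For Cox8b they were 41.1% ± 6.07, 28.8% ± 4.90, 6.83% ± 4.23 and 12.0% ± 4.14. In all 3 pairs each DNCB library, with or without BJIKT, had a smaller share of the muscle form than each library without DNCB. The LowAhR+AD and LowAhR+AD+BJ libraries overlapped in each pair.

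Skeletal muscle markers moved with these 3 genes. The 20 markers of the list, among them Acta1 and Myl1 of the contractile apparatus, summed to 17719, 19027, 37446 and 34611 CPM in LowAhR and to 6500.0, 3880.3, 725 and 6409 CPM in LowAhR+AD. All 20 were called lower by edgeR in LowAhR+AD against LowAhR, beside 6.21% of all rows, with a median log2 fold change of -2.70. The library with the lowest sum, replicate 3, was also lowest for all 3 muscle forms. In bulk skin, fewer muscle cells in the sample and less muscle RNA per cell cannot be told apart. Per 1000 CPM of the muscle list, Cox6a2 stood at 9.27 to 13.9 CPM in LowAhR and at 10.8 to 17.7 in LowAhR+AD. Cox7a1 stood at 2.47 to 10.2 and 2.65 to 9.29, and Cox8b at 3.18 to 9.08 and 4.16 to 11.7. On that scale these 2 groups overlapped for all 3 genes. In LowAhR+AD+BJ, Cox6a2 stood at 14.0 to 22.4, above every LowAhR library. Cox7a1, at 3.67 to 10.1, and Cox8b, at 4.62 to 9.46, overlapped LowAhR there.

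Across the 16 libraries, Pearson's r between the log2 level and the log2 muscle sum was 0.97 for Cox6a2, 0.93 for Cox8b and 0.89 for Cox7a1. The median over the members was 0.025, and next came Ndufa4l2 at 0.62. These points share libraries, depth and the group differences, so r is given as a description. The mean log2 level of the 20 muscle markers was then added to the edgeR model as a covariate. With it, 0 members were called in LowAhR+AD against LowAhR, beside 0.956% of all rows, a share that was 12.6% without it. Calls became few over all rows, so this count does not set the members apart. At an unadjusted p under 0.05 in this fit, 1 member was higher and 10 were lower. There the log2 differences were -0.06 for Cox6a2, -1.25 for Cox7a1 and -1.19 for Cox8b.

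**Figure D4:**
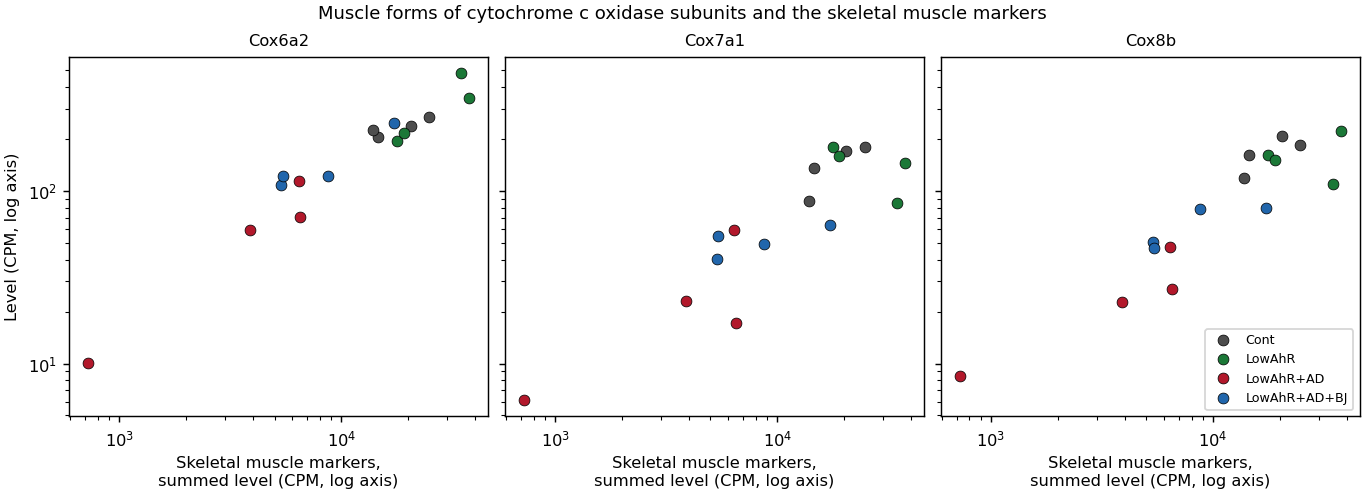
Level of each muscle form (y axis, CPM, log scale) against the summed level of 20 skeletal muscle markers (x axis, CPM, log scale), 1 point per library, coloured by group. The LowAhR+AD points lie at the lower left, with replicate 3 lowest at a muscle sum of 725 CPM. Taken over all groups, the points rise from lower left to upper right. Within LowAhR, Cox7a1 and Cox8b are lowest in replicate 4, at a muscle sum of 34611 CPM.

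Complex I held the other 4 called members. Ndufa4l2, a relative of Ndufa4 whose gene is induced at low oxygen, was at 29.4, 66.4, 74 and 52.9 CPM in LowAhR and at 6.41, 7.06, 20.4 and 7.95 CPM in LowAhR+AD. It fell in all 4 DNCB libraries below the LowAhR range, with a log2 difference of -2.41 (SE 0.59, edgeR adjusted p = 0.0129). LowAhR itself was above Cont, where the 4 libraries lay between 22 and 30.4 CPM, but LowAhR replicate 1, at 29.4 CPM, fell inside that range. Ndufa4, its partner, was at 283, 255, 194 and 161 CPM in LowAhR and at 31.4, 179, 168 and 166 CPM in LowAhR+AD. Its 2 groups overlapped and it was not called (log2 difference -0.71, SE 0.37, edgeR adjusted p = 0.222).

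Ndufa6, a subunit at the joint of the complex I arms, fell from 611, 650.3, 563 and 448 CPM to 117, 279, 357 and 325 CPM (log2 difference -1.07, SE 0.28, edgeR adjusted p = 0.0186). Ndufa1, a small membrane subunit encoded on the X chromosome, fell from 291, 311, 196 and 221 CPM to 32.1, 146, 121 and 142 CPM (log2 difference -1.21, SE 0.33, edgeR adjusted p = 0.0240). Replicate 1 of LowAhR+AD was by far the lowest for both, and without it both stayed called, with log2 differences of -0.83 and -0.90. Ndufa6 lost its call without LowAhR replicate 2 (edgeR adjusted p = 0.0526), and Ndufa1 lost it without LowAhR replicate 1 or 2 (edgeR adjusted p = 0.0644 and 0.0692). Ndufa5, a subunit of the matrix arm, was at 628, 553, 650.5 and 384 CPM in LowAhR and at 248, 355, 286 and 400.4 CPM in LowAhR+AD. Its groups overlapped by 1 library each (log2 difference -0.78, SE 0.23, edgeR adjusted p = 0.0333), and the call was lost without LowAhR replicate 1, 2 or 3 or LowAhR+AD replicate 1, 2 or 3, with adjusted p between 0.055 and 0.1.

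Complexes III and V had 0 called members in this comparison. Lowest in p were Uqcrfs1, the Rieske iron-sulfur protein, and Atp5c1, the central stalk of the ATP synthase. Uqcrfs1 was at 244, 216, 194 and 177 CPM in LowAhR and at 53.9, 175, 142 and 174 CPM in LowAhR+AD. The groups did not overlap, but the gap between 177 and 175 CPM was small and 1 library was far below (log2 difference -0.61, SE 0.27, edgeR adjusted p = 0.149). Atp5c1 averaged 132 ± 19.7 and 102 ± 18.8 CPM, with an edgeR adjusted p of 0.286. Among members that were higher, Ndufs6, a zinc-binding accessory subunit, was at 127, 128, 178 and 166 CPM and at 369, 188, 217 and 148 CPM (log2 difference 0.62, SE 0.24, edgeR adjusted p = 0.0943). The difference was 0.30 without LowAhR+AD replicate 1, and 0.79 and called without replicate 4 (edgeR adjusted p = 0.0422). Uqcrc1, a core subunit of complex III, had a log2 difference of 0.52 that became -0.016 without LowAhR+AD replicate 1.

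Against Cont, LowAhR+AD had 14 called members (17.9%), beside 21.8% of all rows. Higher were 11, beside 12.3% of rows called higher, and lower were 3, beside 9.47% called lower. The 3 lower members were again Cox8b, Cox7a1 and Cox6a2, with log2 differences of -2.67, -2.43 and -1.88 (edgeR adjusted p = 2.47e-04, 0.00161 and 0.0101). The 3 widely expressed partners were all among the 11 that rose. Cox6a1 was at 226, 187, 217 and 183 CPM in Cont, and each LowAhR+AD library, at 416 CPM or more, was higher (log2 difference 1.17, SE 0.19, edgeR adjusted p = 5.75e-04). Cox7a2 and Cox8a rose by 0.99 (SE 0.27) and 0.75 (SE 0.24) on the log2 scale, with edgeR adjusted p of 0.0126 and 0.0340, although replicate 1 of LowAhR+AD lay within the Cont range of Cox7a2 and at its lower edge for Cox8a.

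The 8 other members that rose against Cont spanned all complexes. In complex I they were Ndufa8 (log2 difference 1.35), Ndufa3 (0.90), Ndufs6 (0.89) and Ndufc1 (0.57), all accessory subunits. In complex III they were Uqcrq (0.72), which helps form the quinone-binding part, and Uqcrh (0.54), in complex IV Cox5a (0.69), and in complex V Atp5h (0.77). Adjusted p ranged from 0.00268 for Ndufa8 to 0.0482 for Uqcrh in edgeR. Ndufa8 was at 35.5, 61.2, 76.6 and 84.5 CPM in LowAhR+AD, all above its Cont maximum of 27.3 CPM. Ndufs6 differed by 0.55 without LowAhR+AD replicate 1 and stayed called. For these 8 the LowAhR mean was also above the Cont mean. Leaving out 1 library left between 10 and 18 members called, beside 16.1% to 23.2% of all rows. Uqcrh lost its call without any single library other than LowAhR+AD replicate 1 (edgeR adjusted p 0.0623 to 0.127). The same held for Cox8a (0.0544 to 0.0973). Ndufc1 lost it without any Cont library or without LowAhR+AD replicate 1 (0.0517 to 0.0865). Cox5a lost it without Cont replicate 2, 3 or 4 or LowAhR+AD replicate 3 or 4 (0.053 to 0.0859).

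Other cell type markers differed between these groups too. The 16 hair follicle markers summed to 26.2 to 997 CPM in Cont, 102 to 10861 in LowAhR, 7106 to 27157 in LowAhR+AD and 6587 to 19066 in LowAhR+AD+BJ. Of these, 15 were called higher in LowAhR+AD against Cont and 1 against LowAhR, beside 12.3% and 6.42% of all rows. The 8 markers of activated keratinocytes, such as Krt6a, summed to 149.7 to 717 CPM without DNCB and to 10719 CPM or more with it. The 10 white adipocyte markers summed to 456 to 4072 CPM in LowAhR+AD, below the whole LowAhR range. The fibroblast markers summed to 29089.9 to 55425 CPM in LowAhR and 3967 to 23042 in LowAhR+AD. The sebaceous gland markers summed to 2730.3 to 5643 and 1385 to 1991 CPM, and the leukocyte markers to 1788 to 2214 and 301 to 1218 CPM, none with overlap. Called lower were 3 of 7 fibroblast, 2 of 8 sebaceous gland and 4 of 12 leukocyte markers, beside 6.21% of all rows, and 0 were called higher. Cd74, the highest leukocyte marker, averaged 1091 and 262 CPM, and Fcer1g, the next, 143 and 147 CPM. Ucp1, the defining gene of brown fat, which also makes much cytochrome c oxidase, had 31 counts over the 16 libraries and was at 0 in 13 of them. The other brown adipocyte markers listed, Cidea, Dio2, Ppargc1a, Elovl3 and the member Cox8b, had counts in every library. Elovl3 is also in the sebaceous gland list. The 6 brown adipocyte markers summed to 371 to 791 CPM in LowAhR and 312 to 727 in LowAhR+AD, with overlap. With the mean log2 level of the muscle markers as a covariate, 3 members stayed called against Cont, beside 7.6% of all rows. They were Cox6a1 and Ndufa8, higher, and Cox8b, lower. What the other lists contributed was not tested.

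The genes of the catalytic F1 part of the ATP synthase, a group named after the values were seen, are given for their levels. Of its 5 members, 0 were called by edgeR in any of the 5 comparisons, beside 0.0% to 21.8% of all rows, and so small a group cannot be set apart from the other rows by this count. Atp5b, the catalytic beta subunit, averaged 515, 483, 499 and 487 CPM, in the order of the groups given above, and Atp5a1, the alpha subunit, 586, 607, 555 and 574 CPM. Their log2 differences stayed between -0.13 and 0.05 in all 5 comparisons. Of the 3 c-ring genes, Atp5g1, Atp5g2 and Atp5g3, which encode the same mature protein, Atp5g3 was called higher in LowAhR+AD against Cont when LowAhR+AD replicate 1 was left out, and 0 were called with all libraries. In complex I, DESeq2 called Ndufs8, an iron-sulfur subunit, in LowAhR+AD+BJ against LowAhR, where its log2 difference was 0.79 (SE 0.26, edgeR adjusted p = 0.0695).

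BJIKT was read from LowAhR+AD+BJ against LowAhR+AD, 2 groups with the same diet and DNCB. No member and no other row was called by edgeR (0.0%), and DESeq2 also called 0 members, beside 0.114% of rows. At an unadjusted p under 0.05, 22 of 78 members were higher (28.2%) and 1 was lower, beside 4.51% of rows higher and 4.95% lower. Higher means were found for 60 members, with a median log2 fold change of 0.27, beside -2.36e-04 over all rows. All BJIKT libraries lay above all LowAhR+AD libraries for 8 members (10.3%), beside 2.42% of rows, and below them for 0. The number at an unadjusted p under 0.05 fell to 10 without LowAhR+AD replicate 1, to 12 without LowAhR+AD+BJ replicate 1 and to 11 without LowAhR+AD+BJ replicate 2. The median was 0.22, 0.28 and 0.21 in these fits, with 62, 61 and 58 members higher. In a model of only the 8 libraries compared, 8 members were higher and 0 lower at an unadjusted p under 0.05. There the median was 0.27, with 60 members higher in mean.

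Among members with a mean of at least 10 CPM, the largest differences were those of the muscle forms. Cox8b was at 78.9, 50.7, 79.8 and 46.9 CPM with BJIKT, beside 27, 22.7, 8.47 and 47.1 CPM without it, a log2 difference of 1.28 (SE 0.37, edgeR adjusted p = 0.498). The groups overlapped by 1 library each. Cox6a2 was at 122, 108, 248 and 122 CPM with BJIKT and differed by 1.24 (SE 0.48), and Cox7a1, at 49.3, 40.5, 63.4 and 55 CPM, by 0.97 (SE 0.45). The muscle markers summed to 8698, 5362, 17292 and 5428 CPM with BJIKT, highest in the library with the most Cox6a2, replicate 3. In Cont both were highest in replicate 1. In LowAhR the muscle sum was highest in replicate 3 and Cox6a2 in replicate 4, and in LowAhR+AD they were highest in replicates 1 and 4. Of the 20 muscle markers, 7 were higher and 0 lower at an unadjusted p under 0.05.

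Outside the muscle forms, Ndufb3, an accessory subunit of the complex I membrane arm, was at 99.97, 325, 317 and 347 CPM in LowAhR+AD and at 592, 566, 391 and 504 CPM in LowAhR+AD+BJ. Each BJIKT library was higher, and the log2 difference of 0.91 (SE 0.30, edgeR adjusted p = 0.498) became 0.63 without LowAhR+AD replicate 1. Atp5f1, the b subunit of the stalk, was at 111, 251, 259.7 and 242 CPM and at 383, 348, 266 and 321 CPM (log2 difference 0.61, SE 0.24, edgeR adjusted p = 0.5). Uqcrfs1 was at 53.9, 175, 142 and 174 CPM and at 240.0, 242, 193 and 228 CPM (log2 difference 0.73, SE 0.27, edgeR adjusted p = 0.499). For both the BJIKT libraries were all above the others, with 1 LowAhR+AD library far below the rest. Uqcrc1 went the other way, from 263, 103, 83.2 and 98.1 CPM to 71.5, 87.4, 88.1 and 85.7 CPM (log2 difference -0.72, SE 0.29), and without LowAhR+AD replicate 1 the difference was -0.20. Cox6b1, on the intermembrane side of complex IV, was at 265, 501, 541 and 639 CPM and at 844, 880.2, 545 and 799 CPM (log2 difference 0.66, SE 0.25, edgeR adjusted p = 0.499), with 1 BJIKT library inside the other range. Ndufs7, a core subunit of complex I, and Ndufa10 had the next largest falls, from means of 85.2 to 68.9 CPM and of 92.1 to 75.4 CPM, neither called.

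Against LowAhR, the BJIKT group had 1 called member, Cox8b, which fell by 1.33 on the log2 scale (SE 0.37, edgeR adjusted p = 0.0381), or 1.28% of members beside 6.77% of rows (3.12% lower and 3.64% higher). The call was lost without LowAhR replicate 1, 2 or 3 or LowAhR+AD+BJ replicate 1, 2 or 4 (edgeR adjusted p 0.0632 to 0.129). Cox7a1 was also below every LowAhR library, with a log2 difference of -1.45 (SE 0.45, edgeR adjusted p = 0.0604). Ndufa10, a complex I accessory subunit, had the lowest p of its complex, with means of 124 ± 31.6 and 75.4 ± 12.5 CPM (log2 difference -0.72, SE 0.22, edgeR adjusted p = 0.0544). All BJIKT libraries lay above all LowAhR libraries for 5 members (6.41%), beside 8.91% of rows, and below them for 2, Cox8b and Cox7a1 (2.56%), beside 8.19% of rows. The median over the members was 0.055, beside 0.0078 over all rows. Uqcr10, a small subunit of complex III, averaged 257 ± 67.7 and 363 ± 30.1 CPM and was not called (edgeR adjusted p = 0.240). Atp5o, the stalk subunit that links to the F1 head, was at 406, 354, 449 and 394 CPM in LowAhR and at 529, 709.8, 487 and 706 CPM in LowAhR+AD+BJ, higher in every BJIKT library, with an edgeR adjusted p of 0.107.

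Replicate 1 of LowAhR+AD stood apart from its group. It was the lowest of the 4 libraries for 46 of the 78 members and the highest for 17. Relative to the mean of the other 3, its members had a median log2 difference of -0.34 and an interquartile range of 1.31, where the other 15 libraries had interquartile ranges of 0.231 to 0.546. Over all tested rows it was lowest in 42.6%, beside 16.4% to 30.1% in the other libraries. Ndufa1, Ndufa4 and Ndufb3 were at 32.1, 31.4 and 99.97 CPM there and at 121, 166 and 317 CPM or more in the other 3. Ndufs6 and Uqcrc1 went the other way, at 369 and 263 CPM beside at most 217 and 103 CPM. Replicate 3 of LowAhR+AD+BJ was lowest for 50 members, by a smaller median of -0.31 with an interquartile range of 0.484.

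**Figure D5:**
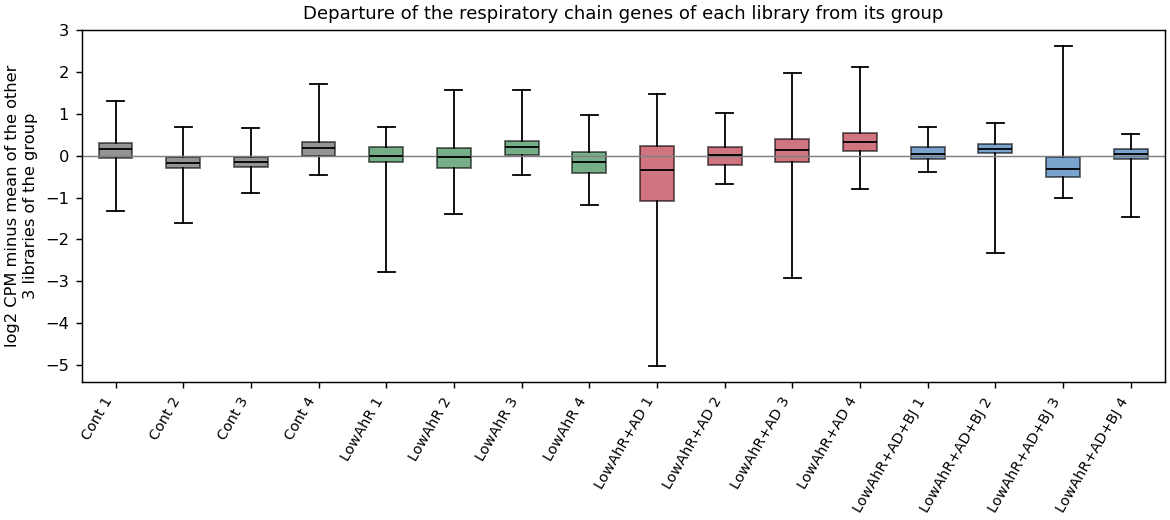
Difference in log2 CPM (y axis) of the 78 tested genes in each library (x axis) from the mean of the other 3 libraries of its group. Boxes span the quartiles with the median as a line, and whiskers reach the lowest and highest gene. The box of LowAhR+AD replicate 1 is the widest, with an interquartile range of 1.31, and its median is -0.34.

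The wider mitochondrial lists, written with earlier results of these data known, moved unevenly. The mitochondrial ribosomal proteins, which make the subunits encoded in mitochondrial DNA, had 27 of 76 called higher and 0 lower in LowAhR+AD against Cont, with a median log2 fold change of 0.60, beside 12.3% of all rows called higher. Against LowAhR 5 were called higher, near the share of 6.42% over all rows. Their sum was 3030.1 to 3302 CPM in Cont and 4350.3 to 4697 CPM in LowAhR+AD. Mrpl3 and Mrpl20, of the large ribosomal subunit, had the lowest p of the 27, with log2 differences of 1.74 and 0.98 (edgeR adjusted p = 4.49e-04 and 0.00171). In LowAhR+AD+BJ against LowAhR 3 were called higher, near the share of 3.64% over all rows, and against LowAhR+AD 0, beside 0.0%.

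The list of mitochondrial carriers and coupling genes split. Of 12 tested, 5 were called higher and 3 lower in LowAhR+AD against Cont, beside 12.3% of all rows called higher and 9.47% lower. Slc25a4, the ADP and ATP carrier of muscle and heart, fell by 1.98 on the log2 scale and Ucp3, a muscle uncoupling protein, by 1.72, while Ucp2 rose by 1.75 and Atpif1, an inhibitor of the ATP synthase, by 1.13 (edgeR adjusted p at most 0.0299). Atpif1 was at 139 CPM in replicate 1 of LowAhR+AD, below its Cont range of 170 to 260 CPM, and at 405 CPM or more in the others. Slc25a4 also fell by 2.27 in LowAhR+AD against LowAhR (edgeR adjusted p = 1.48e-04). Of the 12 tested regulators of mitochondrial biogenesis, Esrra rose by 1.38 on the log2 scale in LowAhR+AD against Cont, and Ppargc1a and the muscle regulator Perm1 fell by 1.46 and 1.96 (edgeR adjusted p at most 0.0362). Esrra stood at 26.7 to 74 CPM in LowAhR+AD and at 11.4 to 33.2 CPM in Cont, with overlap. Against LowAhR, Pprc1 rose by 2.59 and Perm1 fell by 1.37, beside 6.42% of all rows called higher and 6.21% lower.

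Of the 4 genes of complex II, which is no member by its symbols, Sdhb was called higher in LowAhR+AD against Cont by 0.79 on the log2 scale. Its libraries overlapped, at 238 to 436 CPM in LowAhR+AD and 166 to 269 CPM in Cont. Of 5 electron carriers, Etfdh fell by 1.47 and Etfb rose by 0.69 in that comparison, while cytochrome c (Cycs) had means of 114.7 and 159.6 CPM and was not called. Of the 45 assembly factors tested, 2 were called higher and 2 lower against Cont, and Ndufaf5 alone was called lower against LowAhR. Of 17 tricarboxylic acid cycle genes, 0 were called against Cont and Idh3b was called lower against LowAhR. Over all rows, 12.3% were called higher and 9.47% lower against Cont, and 6.42% higher and 6.21% lower against LowAhR. In LowAhR against Cont and in LowAhR+AD+BJ against LowAhR+AD, 0 genes of any of these lists were called by edgeR, beside 0.0% of all rows. At an unadjusted p under 0.05 the ribosomal proteins had 19 higher and 0 lower in the first and 5 higher and 4 lower in the second. Over all rows, 7.84% were higher and 5.83% lower in the first, and 4.51% and 4.95% in the second.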

How the data were processed

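RNA from the dorsal skin of 16 mice, 4 per group, was measured by QuantSeq 3′ mRNA sequencing from a single end. The values the authors deposited are unnormalised read counts for each gene symbol and library. The submitters' processing notes name Bowtie2, bedtools and mm10, with no versions or roles. How reads with more than 1 mapping were counted is not given in the sources used here, and no row had counts identical to those of a member.

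Groups and replicates were taken from the sample labels. The 4 samples of a group were picked at random from a larger group of mice. Counts were tested in R 4.3.3 with edgeR 4.0.16 (filterByExpr at min.count 10 and min.total.count 15, TMM, glmQLFit and glmQLFTest, all libraries in one model), with Benjamini-Hochberg adjustment over 14854 rows. Log2 CPM used a prior count of 2. The test was run first on simulated data with known changes. The fit was repeated with DESeq2 1.42.0, limma voom (limma 3.58.1), RLE factors, upper-quartile factors, no filter and at least 10 counts in every library. It was also repeated with only the 8 libraries compared and with library sizes without muscle, follicle and fat markers. Further fits used the mean log2 level of the muscle markers as a covariate, the replicate number as a block, and each library left out.

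Members, lists and tests were chosen with earlier results of these data known. Members named with values were the tissue forms and their partners, the 2 highest genes of each complex, the lowest p of each complex in each comparison, and, for DNCB and for BJIKT, the 3 largest rises and falls at a mean of at least 10 CPM. Other called members, and those shown as examples of replicate 1 of LowAhR+AD, of genes without overlap or of core subunits, and the called genes of the other mitochondrial lists, were named after their values were seen. Of 80 symbols, 77 matched RefSeq directly and 3 through an older symbol, and 66 had a promoter in the table. Some results are not reported here.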

Additional observations from a re-analysis of the deposited data

Results flagged for a closer look

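In groups of 4, a value was singled out when its gap to the nearest other library, divided by the range of the group, passed Dixon's 95% critical value. This was checked in 156 groups of 4, and 13 values were singled out. Chance alone does so in about 1 in 20 groups.

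In LowAhR+AD, 5 of the values belonged to replicate 1. There Ndufa4 was at 31.4 CPM beside 166 to 179 in the other 3 libraries, Ndufb3 at 99.97 beside 317 to 347, Atp5f1 at 111 beside 242 to 259.7, Atp5j2 at 288 beside 581 to 618, and Uqcrc1 at 263 beside 83.2 to 103. In the same group, Ndufa4l2 was at 20.4 CPM in replicate 3 beside 6.41 to 7.95.

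In Cont, replicate 1 had Ndufs6 at 148 CPM beside 115 to 118 and Ndufs7 at 107 beside 76.6 to 77.1, and replicate 4 had Cox6b1 at 489.9 beside 361 to 380.0. In LowAhR, replicate 4 had Cox6c at 704 CPM beside 1390.4 to 1531 and Atp5h at 406 beside 315 to 325. In LowAhR+AD+BJ, replicate 3 had Cox6a2 at 248 CPM beside 108 to 122, and replicate 1 had Uqcrc1 at 71.5 beside 85.7 to 88.1.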

How the results depend on the processing

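The number of called members, like the share of all rows called, changed with the test, filter, libraries and covariate used, differently between comparisons. For LowAhR against Cont it was 0, beside 0% of all rows. It was 10 with DESeq2 (3.31% of rows) and 4 with only the 8 libraries compared (1.84%). With 1 library left out it was 0 to 1, the 1 without LowAhR replicate 2 (1.04%). For LowAhR+AD against LowAhR it was 7, beside 12.6% of all rows. It was 14 with DESeq2 (18% of rows), 12 with limma voom (14.1%) and 13 with at least 10 counts in every library (19.6%). Only the 8 libraries compared gave 3 (5.49%), and the mean log2 level of the muscle markers as a covariate gave 0 (0.956%). With 1 library left out it was 4 to 11. The 4 came without LowAhR replicate 2 (7.39% of rows) and the 11 without LowAhR replicate 4 (13.2%). For LowAhR+AD against Cont it was 14, beside 21.8% of all rows. It was 16 with DESeq2 (26.2% of rows), 14 with limma voom (21.6%) and 13 with RLE (21.8%) or upper-quartile factors (21.5%). It was 9 with only the 8 libraries compared (17% of rows), 3 with the covariate (7.6%) and 10 to 18 with 1 library left out (16.1% to 23.2%). For LowAhR+AD+BJ against LowAhR it was 1, beside 6.77% of all rows. It was 2 with RLE (6.98% of rows) or upper-quartile factors (6.95%), 6 with DESeq2 (11.1%) and 3 with limma voom (6.77%). It was 5 with at least 10 counts in every library (12.1%), 2 with only the 8 libraries compared (8.66%) and 0 with the covariate (1.23%). With 1 library left out it was 0 to 4, the 4 without LowAhR+AD+BJ replicate 3 (9.75%). For LowAhR+AD+BJ against LowAhR+AD it was 0 in every alternative run, beside 0% to 0.114% of rows. The covariate differed between groups itself, so group and muscle level are not cleanly separated in that fit. The cause of any of these changes was not tested.

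Some directions turned (log2 scale). In LowAhR against Cont, Cox6a2 (0.41) was at -0.18 with the covariate, Cox7a1 (-0.006) at 0.094 with the replicate block and at -0.18 to 0.18 with 1 library left out, and Cox8b (-0.06) at -0.26 to 0.086. In LowAhR+AD against LowAhR, Cox7a2 (0.10) was at -0.17 with the covariate and at -0.092 to 0.31 with 1 library left out. Cox8a (0.028) was there at -0.021 with upper-quartile factors, -0.040 with limma voom, -1.4e-04 with the replicate block, -0.35 with the covariate and -0.11 to 0.23 with 1 library left out, and Uqcrc1 (0.52) at -0.016 to 0.69. In LowAhR+AD+BJ against LowAhR, Cox6a2 (-1.05) was at 0.51 with the covariate and at -1.40 to -0.76 with 1 library left out.

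Replicate numbers are shared between groups, but nothing says that they mark shared cages or days. Deviations from the group means correlated at -0.055 to 0.17 between libraries of the same number, over 0.1 in 3 of 24 pairs, and at -0.15 to 0.14 between other libraries. The replicate block gave 7 called members for DNCB (11.4% of all rows) and 13 for LowAhR+AD against Cont (20.1%). For the diet and for BJIKT it gave 0 (0% of rows in each). For LowAhR+AD+BJ against LowAhR it gave 1 (6.38% of rows), which was Ndufa4l2 in place of Cox8b.

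With 4 mice a group, an exact test of 1 gene cannot go below p = 0.0286. DNCB libraries were deeper, levels under 0.424 CPM could not be measured in every library, and reads do not separate RNA per cell from the number of cells.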
